A study of Mus musculus with 18 samples.

Results

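Wild-type Treg cells were compared between mice that did and did not carry Treg cells with the A384T form of Foxp3. The comparison took 5 of the series' 18 arrays, chosen by their titles: 3 arrays of GFP+ wild-type Treg cells from heterozygous A384T:hCD2/WT:GFP mice and 2 arrays of the same kind of cell from WT:hCD2/WT:GFP mice. It asked whether mutant Treg cells in the same mouse alter the wild-type cells beside them, over 18193 genes. No gene passed the test, and the wild-type cells of the A384T mice kept high Foxp3, Il2ra, Ctla4 and Klrg1 values.

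Treg cells are CD4 T cells that restrain other immune cells, and they depend on the transcription factor Foxp3. The gene lies on the X chromosome, so a heterozygous female expresses one allele in some cells and the other allele in the rest. When each allele carries its own reporter, wild-type and mutant Treg cells of one mouse can be sorted apart, and the wild-type cells share the surroundings of the mutant ones. Treg cells also respond to signals from other cells, such as interleukin 2, antigen and glucocorticoid hormone. Whether any signal passed from mutant to wild-type Treg cells was not tested.

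All mice were of the B6;129 strain, and the cells were sorted from lymph nodes and spleen with no treatment. Neither age nor sex was given in the labels. The cells of both main groups were CD4+, GFP+ and hCD2-, so they expressed the wild-type Foxp3 allele with the GFP reporter. Their mice differed in the allele joined to the hCD2 reporter, which was wild-type Foxp3 in one group and A384T in the other. Further arrays gave points of reference: 2 of wild-type hCD2+ Treg cells from the wild-type mice (numbered 3 and 4), 3 of A384T hCD2+ Treg cells from the A384T mice, and 2 of conventional CD4 T cells (Tconv) with neither reporter. The 6 arrays of the I363V and R397W mutants entered the fit only through the spread between arrays. Whether the arrays of a group came from different animals was not stated, and the p-values therefore reflect only the spread among these samples, which may be technical.

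Each value is a log2 array signal minus the Tconv average of the same probe set, so a value of 0 is the Tconv level and values of different genes cannot be ranked by abundance. A change is the mean of the A384T-mouse group minus the mean of the wild-type-mouse group on the log2 scale, with its standard error (SE) from limma. A gene was called when the p adjusted by the Benjamini-Hochberg method over all genes was under 0.05. The number of arrays limits the precision: an exact permutation test of a single value in 3 arrays against 2 could not give a p below 0.2.

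The arrays of the wild-type mice stood apart from each other before any comparison. Between GFP+ arrays 1 and 2 of these mice, 503 genes differed by at least 1, against 41 to 182 genes for the pairs of GFP+ arrays from A384T mice. In 499 of the 503 the hCD2+ array 4 differed from array 3 in the same direction, and in 493 the Tconv array 2 did so from array 1. Malat1, a long nuclear RNA, was one of them, at -0.92 and 1.61 on the GFP+ arrays of wild-type mice and at -0.97, -2.05 and -1.46 on those of A384T mice. A control probe set for the 3′ part of 18S ribosomal RNA also separated the mice, at 0.09 to 0.52 on all 4 Treg arrays of wild-type mice and at -1.40 to -0.43 on all 6 arrays of A384T mice. Mouse genotype and any difference in preparation between the mice cannot be told apart, and the part of these array differences in the results was not tested.

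No gene was called higher and none lower in wild-type Treg cells of A384T mice (0% of the 18193 genes in each direction, limma with Benjamini-Hochberg adjustment), and the smallest adjusted p was 0.9996. At an unadjusted p under 0.05 there were 473 genes (2.60%), 317 higher (1.74%) and 156 lower (0.857%). The median change was 0.01 and all but the lowest and highest 1% of genes lay between -0.62 and 0.57. The 3 arrays lay entirely above the 2 in 2014 genes (11.1%) and entirely below in 1392 (7.65%).

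The data limited the change of most genes. The 95% interval of the change lay within -1 and 1 for 16622 genes (91.4%), and within -0.5 and 0.5 for 9875 genes (54.3%). The interval reached a median of 0.35 to each side of the change. At the widest it reached 3.65, so a change in such a gene could have gone unseen. Fewer of the 323 genes on the T cell and marker lists described below were limited in this way. Of these, 214 (66.3%) had an interval within -1 and 1. By list these were 24 of 28 core genes higher in Treg cells, 11 of 26 effector Treg genes and 9 of 27 cell cycle genes. A p that misses the threshold does not show that a gene was equal in the groups.

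The same cells in mice without mutant Treg cells were compared in the same fit. Between hCD2+ and GFP+ wild-type Treg cells of wild-type mice no gene was called (0%) and 462 had an unadjusted p under 0.05 (2.54%). The median absolute difference was 0.10 there and 0.11 between the GFP+ cells of the 2 kinds of mice. These are not like for like: GFP+ array 1 deviated together with hCD2+ array 3 and GFP+ array 2 with hCD2+ array 4 (correlation 0.77 over genes), whereas the GFP+ groups had no such pairs, and the fit took no account of this. A384T cells against wild-type hCD2+ cells gave 25 genes called higher (0.137%) and 26 lower (0.143%), with a median absolute difference of 0.14. Against the GFP+ wild-type cells of the same mice, A384T cells gave 31 genes called higher (0.17%) and 64 lower (0.352%).

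**Figure D1:**
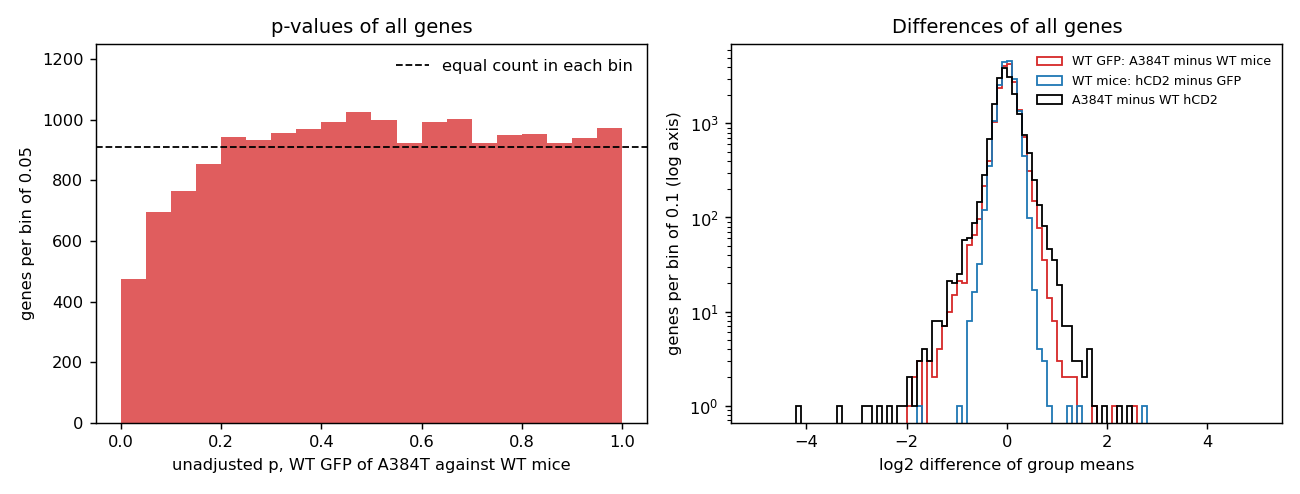
Left, number of genes (y axis) in each bin of unadjusted p (x axis) for GFP+ wild-type Treg cells of A384T against wild-type mice, with the dashed line at an equal count in every bin. Right, number of genes on a log axis against the log2 difference for that comparison (red), for hCD2+ against GFP+ cells of wild-type mice (blue) and for A384T against wild-type hCD2+ cells (black). The lowest bin holds 473 genes, below the dashed line, and below 0 the black outline reaches farther out than the red one.

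Tubb2b and Ap2b1 had the smallest p among the lower genes, although they missed the threshold. Tubb2b, a beta-tubulin of the microtubule, stood at 0.30 and 0.29 in the wild-type mice and at -1.06, -0.63 and -0.91 in the A384T mice. All 3 arrays were below both others, and the change was -1.16 ± 0.23 (SE, 95% interval -1.66 to -0.66, unadjusted p = 0.000198, limma adjusted p = 1). The A384T cells of the same mice went the other way: they stood at 1.68, 1.87 and 1.77, against -0.07 and 0.30 in the hCD2+ wild-type cells. Tubb2b was therefore lowest in the wild-type cells of A384T mice and highest in the mutant cells beside them.

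Tubb2a, a closely related beta-tubulin, was measured by a probe set that may share sequence with Tubb2b, so the pair is uncertain as separate genes. It stood at 0.15 and 0.10 in wild-type mice and at -0.42, -0.48 and -0.42 in A384T mice, a change of -0.57 ± 0.25 (SE). Its values in A384T cells were 1.24, 1.47 and 1.48, again above every wild-type array. On the hCD2+ wild-type arrays Tubb2a stood at -0.21 and -0.17, between the 2 GFP+ groups. Against these arrays the change of the GFP+ cells of A384T mice was -0.26 ± 0.25.

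Ap2b1, a subunit of the adaptor complex that loads clathrin-coated vesicles, stood at 0.66 and 0.38 in wild-type mice and at -1.11, -0.69 and -0.82 in A384T mice. The change was -1.39 ± 0.33 (SE, unadjusted p = 0.000773), and the groups did not overlap. The hCD2+ wild-type arrays lay at -0.14 and 0.62, and the A384T cells at -0.34, -0.60 and -0.68. The highest of its 3 probe sets gave -0.01, so the probe sets of the gene did not give one value.

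3 promoters are shown: that of Tubb2a, since its pair with Tubb2b separated the mutant cells from their neighbours, that of Ap2b1, the gene with the most negative change of the 15 lower genes, and that of Fkbp5, described next, with the smallest p of the higher genes. Each window runs from 250 bases before to 50 bases after the gene start in RefSeq (GRCm38.p6), read in the direction of transcription. Tubb2a lies on the minus strand at chr13:34077959-34078258, Ap2b1 on the plus strand at chr11:83302447-83302746 and Fkbp5 on the minus strand at chr17:28486100-28486399. Capitals mark the cyclic AMP response element TGACGTCA, the same on both strands.
Tubb2a: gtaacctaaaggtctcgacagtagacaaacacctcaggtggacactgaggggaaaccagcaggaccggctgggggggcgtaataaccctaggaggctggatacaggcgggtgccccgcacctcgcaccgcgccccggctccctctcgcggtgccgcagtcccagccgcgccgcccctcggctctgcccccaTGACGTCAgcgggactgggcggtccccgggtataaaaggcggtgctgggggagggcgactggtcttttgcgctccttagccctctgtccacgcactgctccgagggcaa
Ap2b1: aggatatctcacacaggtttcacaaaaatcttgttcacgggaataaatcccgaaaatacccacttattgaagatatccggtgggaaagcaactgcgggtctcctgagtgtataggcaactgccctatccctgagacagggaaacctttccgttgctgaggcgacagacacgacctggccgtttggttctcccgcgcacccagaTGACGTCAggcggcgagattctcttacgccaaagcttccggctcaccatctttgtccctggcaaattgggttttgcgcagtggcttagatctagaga
Fkbp5: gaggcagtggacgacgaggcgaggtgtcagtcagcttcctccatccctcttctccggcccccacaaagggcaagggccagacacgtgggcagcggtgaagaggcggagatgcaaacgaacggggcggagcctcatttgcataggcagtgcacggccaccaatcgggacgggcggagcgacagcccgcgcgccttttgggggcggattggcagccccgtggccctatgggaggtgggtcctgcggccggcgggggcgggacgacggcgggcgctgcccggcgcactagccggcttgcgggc
The element began at base -59 from the Tubb2a start and at base -47 from the Ap2b1 start, and 588 of 32851 mouse promoter windows of this length held it (1.79%). A forkhead motif (TGTTTAC or its complement GTAAACA, in 1199 windows or 3.65%) and the full palindromic glucocorticoid response element (in 3 windows or 0.00913%), searched on both strands, were in none of the 3 windows. These matches describe letters in a window and show no binding.

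Further genes with small p on the lower side had smaller changes, and none passed the test. Gtf3c1, a subunit of the factor that starts RNA polymerase III transcription, stood at 0.38 and 0.29 in wild-type mice and at -0.34, -0.23 and -0.30 in A384T mice, a change of -0.63 ± 0.16 (SE). Its hCD2+ wild-type arrays lay between the groups, at -0.02 and -0.12, and against them the change was -0.22 ± 0.16. The highest of the 4 Gtf3c1 probe sets gave 0.14. Shmt1, an enzyme of one-carbon metabolism, stood at 0.08 and 0.25 against -0.30, -0.51 and -0.33, a change of -0.54 ± 0.14. Ddc, the decarboxylase that makes dopamine and serotonin, stood at 1.34 and 1.29 against 0.69, 0.91 and 1.03, a change of -0.44 ± 0.12. Ddc resembled Tubb2b in that the A384T cells were higher than every wild-type array, at 1.81, 1.79 and 2.09. Cycs, the cytochrome c of the respiratory chain, had a change of -0.45 ± 0.13, with A384T cells (-0.38, -0.45 and -0.34) overlapping their neighbours (-0.49, -0.38 and -0.40). The highest of the 4 Cycs probe sets gave 0.12. The other 9 genes on this side were Cyp2c54, Zfp46, Cnksr2, Ccdc71, Gpatch4, Pm20d1, Lmx1b, Slc1a4 and 2700012I20Rik, with changes from -0.66 in Ccdc71 to -0.32 in Pm20d1.

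On the higher side Fkbp5 had the smallest p, and no gene passed the test. Fkbp5, a chaperone partner of the glucocorticoid receptor that glucocorticoids induce, stood at 0.45 and 0.14 in wild-type mice and at 1.25, 1.04 and 0.84 in A384T mice. The groups did not overlap, and the change was 0.75 ± 0.17 (SE, 95% interval 0.38 to 1.12, unadjusted p = 0.000675, limma adjusted p = 1). The A384T cells of the same mice stood at 0.52, 0.31 and 0.14 and overlapped the wild-type hCD2+ arrays at 0.53 and 0.20. One of the 3 Fkbp5 probe sets went the other way, at -0.14.

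Il10ra, the receptor chain that binds interleukin 10, stood at 1.09 and 1.26 in wild-type mice and at 1.71, 1.84 and 1.71 in A384T mice, a change of 0.58 ± 0.15 (SE). The A384T cells, at 1.72, 1.79 and 1.63, overlapped their neighbours, and all 3 probe sets of Il10ra had a change above 0. Gna15, a G protein alpha subunit of blood cells, stood at 0.75 and 1.18 against 1.26, 1.94 and 1.94, a change of 0.75 ± 0.21. In A384T cells Gna15 was near the Tconv level, at 0.18, 0.09 and 0.10, below every wild-type array. The hCD2+ wild-type arrays stood at 1.13 and 1.44, so the lowest neighbour array lay among the wild-type-mouse arrays.

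Tanc2, a scaffold protein, stood at 0.50 and 0.00 in wild-type mice and at 0.74, 1.38 and 1.39 in A384T mice, a change of 0.92 ± 0.24 (SE). Its values in A384T cells were also high, at 1.06, 1.69 and 1.56. Tmem267 stood at -0.51 and -0.70 against 0.21, 0.41 and 0.72, a change of 1.05 ± 0.27, with A384T cells at 0.22, 0.51 and 1.05. In both genes the array numbered 1 was the lowest of the A384T mice in wild-type and in mutant cells. Ryk, a receptor for Wnt ligands, had a change of 0.76 ± 0.18, and its hCD2+ wild-type arrays (1.06 and 0.90) lay between the groups. The lowest of the 3 Ryk probe sets gave -0.16 and the lowest of the 3 Tanc2 probe sets -0.08. The other 9 genes were Gas2l1, Gm6556, Scn3a, Cela3b, Paqr4, Nr2f6, D430019H16Rik, B4galnt4 and Morc1, with changes from 0.35 in Scn3a to 0.90 in D430019H16Rik.

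These 30 genes, picked for not overlapping between the GFP+ groups, were also measured against the hCD2+ wild-type cells. There 14 of the 15 higher genes were above 0 and all 15 lower genes below 0, with Gm6556 the exception at -0.20. This reused the 3 neighbour arrays that had picked the genes. The hCD2+ arrays also deviated together with the GFP+ arrays of wild-type mice (correlation 0.77 over genes). Keeping the sign was therefore partly fixed in advance and is no replication. Of the 9 higher genes with several probe sets, 2 had every probe set on the same side, and of the 11 such lower genes 6 did. These counts describe chosen genes and carry no test.

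**Figure D2:**
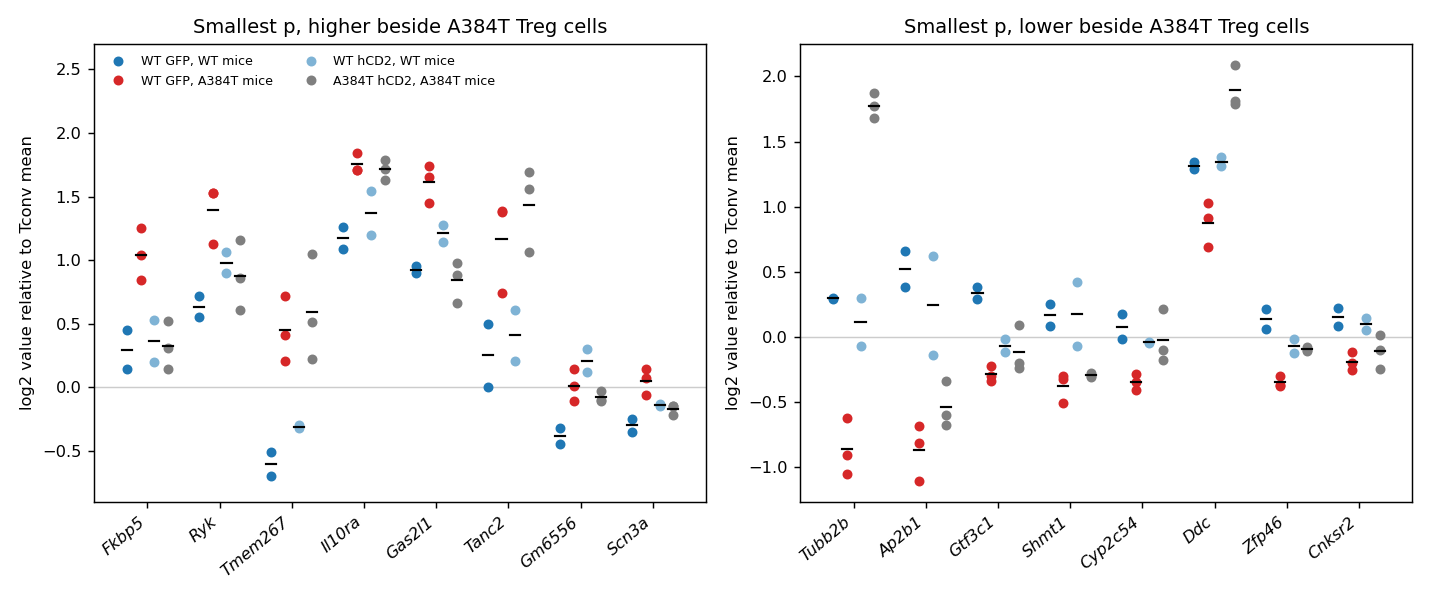
Log2 value relative to the Tconv mean (y axis) on each array for the 8 genes of smallest p on the higher side (left) and the 8 on the lower side (right). Dots are arrays, coloured by group, and black bars are group means. For Tubb2b the A384T cells lie near 1.77 and their wild-type neighbours below 0, whereas for Fkbp5 the neighbours lie above every other array.

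Few genes had large changes, and most of those sat in genes whose wild-type-mouse arrays disagreed. A change of at least 1 was seen in 59 genes (0.324%), 12 higher and 47 lower, and in 43 of them the GFP+ arrays of the wild-type mice were themselves at least 1 apart. The highest value (2.59) was that of Kcnf1, a potassium channel subunit, and the lowest (-1.94) that of Igha, the constant region of IgA, both chosen after their values were seen. Kcnf1 stood at 0.01 and 0.23 against 1.61, 3.49 and 3.03, but one wild-type hCD2+ array reached 2.76 while the other was at -0.09. Igha stood at -1.0 and -1.09 against -4.67, -0.18 and -4.09, so the groups overlapped.

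The genes that define Treg cells were far above the Tconv level in the wild-type cells of both kinds of mice, and none of the panel was called. Foxp3 stood at 7.42 and 7.11 in wild-type mice and at 7.53, 7.59 and 7.58 in A384T mice, a change of 0.30 ± 0.19 (SE, 95% interval -0.12 to 0.72). All 3 arrays were above the other 2, and the upper bound leaves a change of up to 0.72. Il2ra, the high-affinity interleukin 2 receptor chain, had a change of 0.16 ± 0.18, with 5.36 and 5.25 against 5.45, 5.46 and 5.49. The other of its 2 probe sets went the other way, at -0.14. Ctla4, an inhibitory receptor, stood at 4.06 and 3.98 against 4.57, 4.24 and 4.26, a change of 0.34 ± 0.24.

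Klrg1, a lectin-like receptor of terminally differentiated Treg cells, was the gene in which the mutant cells differed most. In their wild-type neighbours it stood at 3.47, 4.25 and 4.21, against 2.89 and 4.43 in wild-type mice, and the groups overlapped. The change was 0.32 ± 0.42 (SE, 95% interval -0.59 to 1.23). In A384T cells from the same mice it stood at -0.05, 0.11 and 0.06, the Tconv level, and the change against hCD2+ wild-type cells was -4.17 ± 0.42 (limma adjusted p = 0.000903).

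Other panel genes had changes whose intervals all held 0. Ikzf2, which encodes the Treg factor Helios, had a change of -0.17 ± 0.16 (SE), and Batf, a factor of effector Treg cells, of 0.09 ± 0.27. Il10, the suppressive cytokine, stood at 0.80 and 1.07 against 1.87, 1.66 and 1.47, which did not overlap (change 0.73 ± 0.36, 95% interval -0.05 to 1.5). The hCD2+ wild-type arrays 3 and 4 stood at 1.53 and 0.94 for Il10, so array 3 lay within the range of the A384T-mouse arrays. Itgae, the integrin chain that retains T cells in epithelium, stood at 4.13 and 4.93 against 4.77, 5.07 and 5.17 (change 0.48 ± 0.23, 95% interval -0.01 to 0.96). The costimulatory receptor Icos had a change of 0.54 ± 0.31, the adhesion receptor Cd44 of 0.27 ± 0.22 and Il2, a cytokine that Foxp3 represses, of 0.14 ± 0.10. The lowest of the 4 Cd44 probe sets gave -0.1. Mki67, a proliferation marker, stood at 0.39 and 2.06 against 0.46, 1.63 and 0.63, and its interval of -1.74 to 1.11 leaves wide room.

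**Figure D3:**
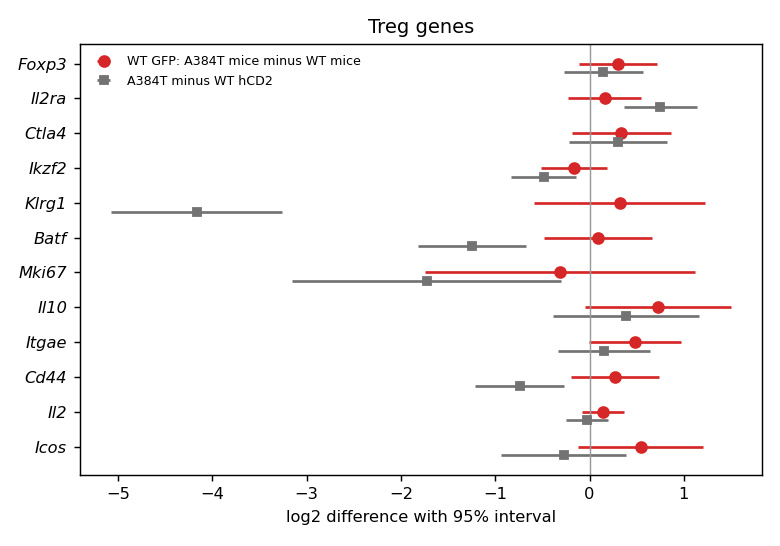
Log2 differences (x axis) with 95% intervals for 12 Treg genes, in GFP+ wild-type cells of A384T against wild-type mice (red circles) and in A384T against hCD2+ wild-type cells (grey squares). Every red interval holds 0, and the grey Klrg1 interval lies around -4.17.

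Over 21 lists of genes for T cell programmes and 7 lists of cell type markers (1 of them for T cells themselves), 323 different genes were measured and none was called (0 of 323, limma). At an unadjusted p under 0.05 there were 6 (1.86%, against 2.60% of all genes), and 19.8% did not overlap between the groups, against 18.7% of all genes. The median of the 323 changes was 0.04, and the list medians ran from -0.22 to 0.26. Some medians depended on 1 array: without array 2 of the wild-type mice they reached -0.56 in the heat shock list (-0.18 with all arrays) and 0.59 in the effector Treg list, and without array 1 the heat shock median was 0.12.

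The effector Treg list had a median above 0 in the wild-type cells of A384T mice and below 0 in the A384T cells. Of 26 measured, 20 were above 0, with a median change of 0.25, and none was called. The median of A384T against hCD2+ wild-type cells for the same list was -0.55. The hCD2+ against GFP+ cells of wild-type mice gave a median of 0.25 as well, a difference of the same size within wild-type mice. Maf, which drives interleukin 10 in T cells, had the highest change of the list, at 2.11 and 1.92 against 2.77, 3.07 and 3.03 (change 0.94 ± 0.33 SE, unadjusted p = 0.0138), and the hCD2+ arrays lay at 2.73 and 1.69.

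Genes of T cell receptor signalling and the AP-1 family also had medians above that of all genes. The early response list had 14 of 20 members above 0 and a median of 0.26, and the AP-1 list 9 of 10 and a median of 0.17. Fosb, an AP-1 subunit, stood at 1.65 and -0.08 against 2.53, 2.7 and 2.25, a change of 1.71 ± 1.0 (SE) that was 0.85 without array 2 of the wild-type mice. All 7 measured Th2 genes were above 0, as were 9787 of 18193 over all genes. Their changes ran from 0.07 in Il13 to 0.56 ± 0.26 in Gata3, the factor that drives Th2 cells. The Th2 medians by array overlapped, at 0.71 and -0.1 in wild-type mice and at 0.17, 0.96 and 0.25 in A384T mice. Lag3, an inhibitory receptor, had a change of 0.94 ± 0.45. Its A384T-mouse arrays (1.41, 1.79 and 1.44) overlapped the hCD2+ wild-type arrays (1.58 and 0.51). The chemokine receptor Ccr10 had a change of 0.73 ± 0.25, with 1.21 and 1.02 on 2 of its A384T-mouse arrays and 0.05 on array 1. Without array 1 of the A384T mice the Ccr10 change was 1.09, with a limma adjusted p of 0.146.

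The cell cycle and cholesterol lists had medians below 0, and no member was called. Of 27 cell cycle genes 21 were below 0, with a median of -0.22, but the arrays within each kind of mouse differed more: the list medians were 0.22 and 0.98 in wild-type mice and 0.01, 1.23 and 0.08 in A384T mice. The median change was -0.58 without array 1 of the wild-type mice and 0.19 without array 2. Of 17 cholesterol synthesis genes 11 were below 0, and Fdps and Lss, which make farnesyl diphosphate and lanosterol, had changes of -0.53 ± 0.20 and -0.62 ± 0.27 (SE). Satb1, a chromatin organiser that Treg cells keep low, stood at -1.83 and -0.34 against -1.69, -2.32 and -2.09, and the groups overlapped. Its change of -0.95 ± 0.52 became -0.21 without array 2 of the wild-type mice. The interferon list had a median of 0.0, which became 0.30 without array 1 and -0.28 without array 2 of the wild-type mice.

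Markers of other cells were measured for signs of admixture. Of 12 myeloid markers 10 were below 0, with a median of -0.20 and a lowest change of -0.89 ± 0.38 (SE) in the lysozyme gene Lyz1. Lyz2, the lysozyme of macrophages, had a change of -0.67. The medians by array were -0.06 and 0.08 in wild-type mice and -0.58, 0.15 and -0.53 in A384T mice, and those of the A384T cells were -1.04, -0.02 and -0.94, so array 2 was the highest in both kinds of cell. The B cell list had a median of -0.04 and the CD8 T and NK cell list of -0.11. In sorted bulk cells, fewer cells of a type and less RNA per cell cannot be told apart, and the part of the myeloid markers in other results was not tested.

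**Figure D4:**
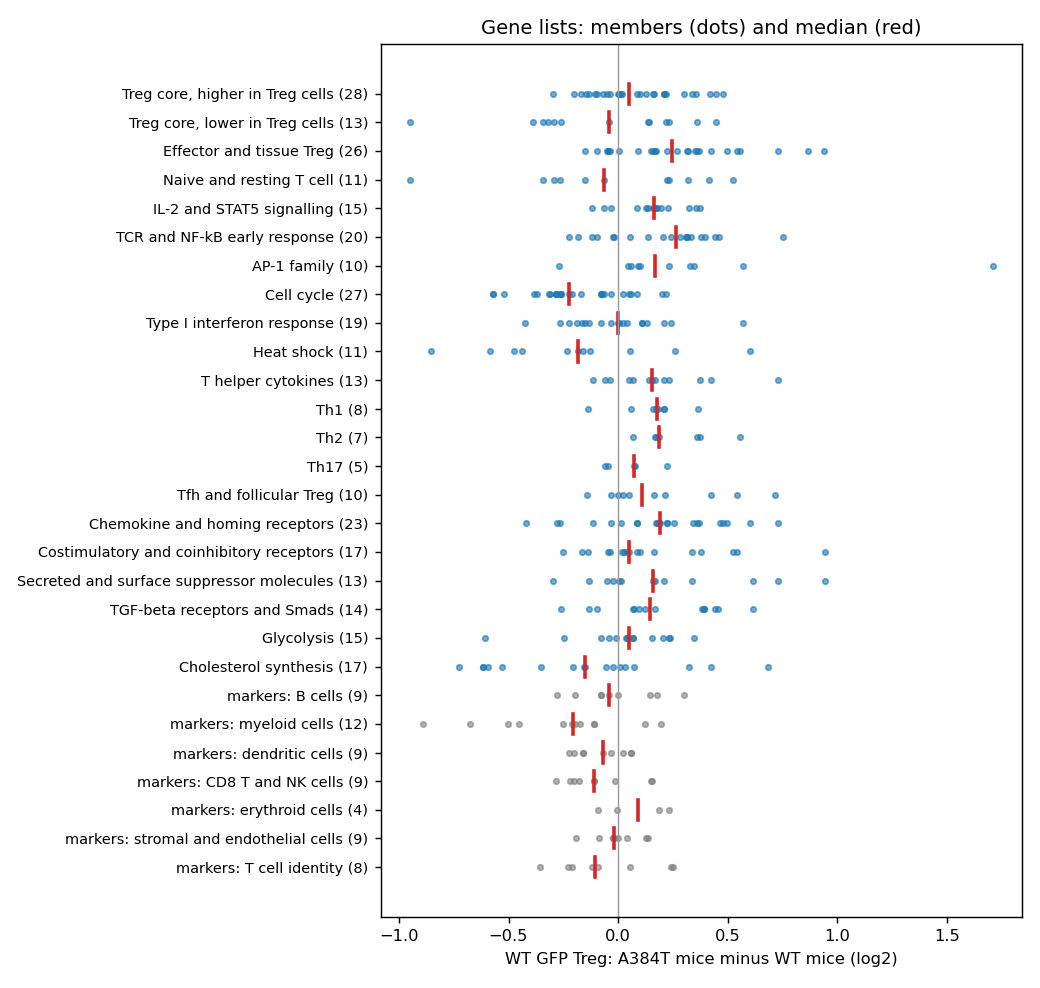
Change of each list member (dots, x axis, log2) in GFP+ wild-type Treg cells of A384T against wild-type mice, with the list median in red and the number of measured members in brackets. Blue lists are programmes and grey lists are markers of cell types. The list medians lie between -0.22 and 0.26, and no member was called.

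The genes that A384T changed in the mutant cells were then read in their wild-type neighbours. Of the 25 genes higher in A384T than in hCD2+ wild-type cells (median 1.01), the neighbours had a median change of 0.12, with 18 above 0 (9787 of 18193 over all genes). In 5 of the 25 the neighbours had an unadjusted p under 0.05 in either direction, against 2.60% of all genes. Ryr2, Pip5k1b and Myo3b were higher in the neighbours, and Tubb2b and Tubb2a were lower. In 8 of the 25 all 3 arrays lay above both arrays of the wild-type mice, against 11.1% of all genes. In 3 of the 25 they lay below both, against 7.65%. Of the 26 lower genes (median -1.49), the neighbours had a median of 0.21, with 20 above 0, 1 with an unadjusted p under 0.05, 2 with all 3 arrays above and 2 with all 3 below. The mutant cells and their neighbours share mice, and arrays of equal number deviated together, so these are not independent sets.

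Ryr2, an intracellular calcium release channel, had the highest neighbour change among the genes higher in A384T cells, and it missed the threshold. It stood at 0.78 and 1.41 in wild-type mice, at 1.96, 2.0 and 1.65 in the neighbours and at 2.97, 3.25 and 3.03 in A384T cells, with a change of 0.78 ± 0.23 (SE) in the neighbours. The order over the groups ran from wild-type mice through the neighbours to the mutant cells. Ryr2 was picked for being higher in A384T cells and for its neighbour rise, so this order was partly fixed in advance. Pip5k1b, a lipid kinase, had a neighbour change of 0.47 ± 0.14 beside 0.71 in A384T cells. The calcium-binding proteins S100a4 and S100a6 fell in A384T cells, by 2.50 and 2.84, and had changes of 0.35 ± 0.35 and 0.22 ± 0.33 in the neighbours.

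**Figure D5:**
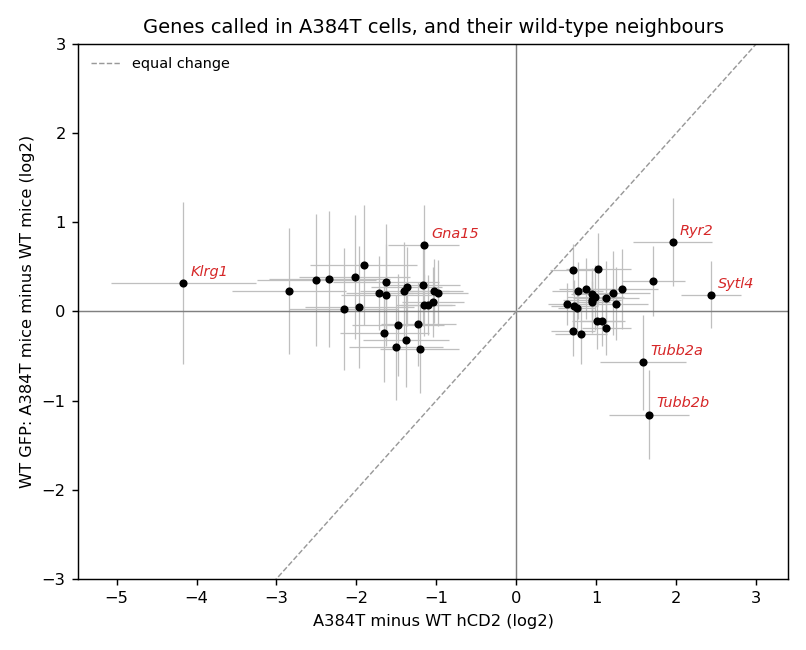
For the 25 genes called higher and 26 called lower in A384T against hCD2+ wild-type cells (x axis, log2 difference), the change in GFP+ wild-type cells of A384T against wild-type mice (y axis, log2), with 95% intervals. The dashed line marks an equal change. On the y axis the points run from -1.16 to 0.78, with Tubb2b at -1.16 and Ryr2 at 0.78.

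A direct test set the A384T shift against the shift of the wild-type neighbours. It called 9 genes (0.0495% of 18193), 5 with a higher mutant shift (0.0275%) and 4 with a lower one (0.022%). With arrays of equal replicate number from one kind of mouse as a random block it called 8 and 21. That block left the hCD2+ wild-type arrays unpaired. Sytl4, a granule-docking protein, had a mutant shift above that of the neighbours by 2.25 ± 0.25 (SE, limma adjusted p = 0.00502): it stood at 2.60, 3.07 and 2.94 in A384T cells and at 0.34, 0.92 and 0.73 in their neighbours. Tubb2b differed by 2.82 ± 0.33 (limma adjusted p = 0.00502) and Klrg1 by -4.48 ± 0.60 (limma adjusted p = 0.0163). Nrn1, a membrane-anchored protein first known from neurons, differed by -1.92 ± 0.27, and S100a6 by -3.07 ± 0.47. Gna15, Vipr1, Tdrp and Tubb2a made up the rest. Of these 9, Sytl4 and Tubb2b stayed called in 9 of 10 fits that each left out 1 array, and were lost without GFP+ array 1 of the wild-type mice, where no gene was called. Klrg1 stayed called in 4, Nrn1 and S100a6 in 3, Gna15 in 2, Tdrp in 1 and Vipr1 and Tubb2a in none.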

How the data were processed

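RNA of the sorted cells was labelled with a two-cycle kit and hybridised to Affymetrix mouse arrays, per the labels. The authors deposited log2 values, and the submitters' processing notes name RMA; its software and version are not given in the sources used here, and the log2 base follows from the convention of RMA. In the deposited table the 2 Tconv values sum to 0 at every probe set (within 1e-06), so no filter on dim probe sets could be applied.

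Of 45101 probe sets, 34945 had 1 gene in the platform annotation, 932 had several, 9160 had none and 64 were controls. For each of 18193 genes, the most variable probe set over all arrays was taken. Group means were fitted to all 18 arrays with limma 3.58.1 in R 4.3.3 (lmFit and eBayes, 11 residual degrees of freedom), with Benjamini-Hochberg adjustment over all genes and two-sided tests. The code was tested on simulated data.

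Members and gene lists were chosen with earlier results of these data known. The genes named were those called or, where fewer than 15 were called in a direction, the genes of smallest p whose arrays did not overlap, with a Treg panel and the largest rise and fall of each list. Equal-numbered GFP+ and A384T arrays of A384T mice deviated together (correlations 0.58 to 0.69 over genes), as did GFP+ arrays 1 and 2 with hCD2+ arrays 3 and 4 of wild-type mice (0.77), but equal numbers did not pair the 2 GFP+ groups (-0.05 and -0.04). Alternatives covered probe set choice, arrays in the fit, centring, array weights, blocks, controls and leaving out each array.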

Additional observations from a re-analysis of the deposited data

Results flagged for a closer look

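The shift of A384T Treg cells against hCD2+ wild-type cells differed from the shift of their GFP+ wild-type neighbours in 9 genes, by a limma test of the difference itself. The mutant shift was above that of the neighbours by 2.25 in Sytl4 (adjusted p 0.00502), 2.82 in Tubb2b (0.00502), 1.31 in Vipr1 (0.0333), 1.19 in Tdrp (0.0333) and 2.15 in Tubb2a (0.0498), all log2 values. It was below that of the neighbours in Klrg1 by a difference of -4.48 (adjusted p 0.0163), in Nrn1 by -1.92 (0.0251), in S100a6 by -3.07 (0.0333) and in Gna15 by -1.91 (0.0333). The 2 shifts were opposite in sign in each of these genes except Sytl4, where they were 2.43 in the mutant cells and 0.19 in the neighbours. In Tubb2b, Tubb2a and Gna15 the 95% interval of the neighbours' change did not hold 0, but the intervals are not adjusted over genes. No neighbour change was called in any of the 9 genes. The 9 genes were picked by the difference of the 2 shifts, which favours opposite signs. The mutant and neighbour shifts were 1.66 and -1.16 in Tubb2b, 1.59 and -0.57 in Tubb2a and -1.16 and 0.75 in Gna15. In Klrg1, Nrn1, S100a6, Sytl4, Vipr1 and Tdrp the 95% interval of the neighbours' change held 0.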

How the results depend on the processing

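No gene was called in wild-type Treg cells of A384T mice under any alternative, nor between the hCD2+ and GFP+ cells of wild-type mice. The smallest limma adjusted p ran from 0.146 to 1, and the count at an unadjusted p under 0.05 from 408 to 919 among fits with 1 value per gene. The lowest adjusted p came without array 1 of the GFP+ cells of A384T mice, where Ccr10 had the smallest p and a change of 1.09. With the replicate number as a block in the 5 arrays, 0 genes were called and 470 had an unadjusted p under 0.05; numbers do not pair these groups. Where 1 wild-type-mouse array was left out, the lone GFP+ array was assumed to vary like the other groups.

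The test of mutant against neighbour shifts depended on the setting. With a random replicate block (correlation 0.65) it called 8 genes higher and 21 lower, and leaving out 1 array gave 0 to 3 higher and 0 to 9 lower. All 9 genes named there were called with the random block (limma adjusted p 0.000158 to 0.0207). The block did not pair hCD2+ arrays 3 and 4 with GFP+ arrays 1 and 2 of wild-type mice. Those arrays deviated together (correlation 0.77 over genes), so the block took no account of the wild-type side of this test.

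Of 480 values for the 30 genes of smallest p, 1 reversed: Gm6556 at -0.20 with hCD2+ cells as control. These genes were picked for not overlapping between the GFP+ groups. Leaving out 1 array, or refitting the same arrays with other weights or another spread, therefore could not reverse their sign. For those settings the count was fixed in advance. In the Treg panel Klrg1 reversed to -0.23 with that control and -0.45 without GFP+ array 1 of wild-type mice, Batf to -0.04 without that array and -0.08 without array 2 of A384T mice, and Mki67 to 0.52 without array 2 of wild-type mice. Leaving out 1 array gave -0.08 to 0.30 for Batf and -1.15 to 0.52 for Mki67. The cause was not tested. Of 448 list medians 18 moved by more than 1 SD; that of effector Treg genes was 0.59 without array 2 of wild-type mice. One alternative, all probe sets whether named or not, was chosen after seeing the data.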
